A study of Mus musculus with 2 samples.

Results

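The IL-33 and type 2 immune axis was followed here through 9 genes in single cells of the stromal vascular fraction (SVF) of gonadal white adipose tissue (gWAT). The genes were Il33 and Tslp (ligands), Il1rl1 and Il1rap (the chains of the IL-33 receptor), Gata3 (a transcription factor), and Areg, Il5, Il13 and Il4 (effectors), 9 of the 28692 genes counted. They were chosen by name for their known roles, at a time when earlier results of these data were known. The study asked what loss of the glycolytic enzyme Pgam1 in fat cells does to adipose tissue, and its single-cell experiment held 1 library per genotype. The Adipo-Pgam1 KO library came from mice with an Adipoq-Cre transgene and floxed Pgam1 alleles, and the control library from littermates that the labels call wildtype and the methods give as Pgam1 flox/flox without Cre. All mice were C57BL/6 males, 13 weeks old, and the number of mice per library was not given in the sources used here. Adipoq drives Cre in adipocytes, a cell that the SVF largely lacks, and Adipoq itself had 23 control and 8 KO UMIs.

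IL-33 is an alarmin that stromal cells keep in the nucleus and release on damage, and TSLP is a second tissue-derived cytokine that acts on the same immune cells. IL-33 binds ST2, the product of Il1rl1, which signals together with the shared chain encoded by Il1rap. In adipose tissue the best known ST2-bearing cells are group 2 innate lymphoid cells (ILC2) and regulatory T cells, both of which use GATA3. ILC2 release IL-5 and IL-13, which sustain eosinophils and alternatively activated macrophages, and amphiregulin, the growth factor encoded by Areg.

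The deposited files held 8522 control and 2730 KO barcodes with 42859406 and 13821581 UMIs, where a UMI stands for a captured transcript molecule. A limit of 500 detected genes and a ceiling of 10% of UMIs from mitochondrial genes left 3881 and 958 barcodes, and after removal of likely doublets 3616 and 937 cells were kept with medians of 6898 and 7494 UMIs. The libraries shared 9 barcodes, 0 of them among the kept cells. Levels are given as CPM, the UMIs of a gene summed over a group of cells per 1000000 UMIs of that group, and KO and control are compared as the log2 ratio of their CPM. All intervals are 95% intervals of the counting error alone. With 1 library per genotype there was no replicate and no test, and genotype and library cannot be told apart. Over all kept cells Pgam1 had 109.6 CPM in the control and 116 CPM in the KO library. In all fibroblast-like cells it had 109 and 106 CPM (log2 ratio -0.04, -0.22 to 0.14). The paper reports from this experiment a fibroblast cluster rich in adipocyte markers, proposed to be preadipocytes, with Pgam1 markedly lower in the KO. That cluster is not matched to a cluster here.

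Cells were clustered without the 9 genes and without 44 further genes of the pathway, and clusters were named from marker lists. In the ILC2-like cluster (176 control and 53 KO cells) Il7r was detected in 168 and 52 cells, Rora in 153 and 43, Klrg1 in 142 and 46 and Arg1 in 147 and 52, and the T cell gene Cd3e in 1 and 1. The rest of the ILC2 list was Rnf128 (137 and 45 cells), Ltb4r1 (138 and 46), Icos (44 and 18) and Hs3st1 (20 and 18). In the mesothelial-like cluster (106 and 20 cells) Upk3b was detected in every cell. Clusters that no list named, 396 control and 155 KO cells, are called here by their leading gene.

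Across all kept cells, Areg was higher and Tslp lower in the KO library, Il1rl1 and Gata3 were moderately higher, and Il33 was about equal. Of the 6 members with at least 50 UMIs over both libraries, 1 was at least 2-fold higher in the KO library, Areg, beside 2.48% of the 13604 genes measured that deeply. A further 1, Tslp, was lower there by 2-fold or more, beside 2.02% of those genes. The median log2 ratio was 0.34 over the 6 members and -0.07 over all 13604 genes. The map of levels shows Il33 in stromal clusters, Il1rl1 and Gata3 mainly in lymphocyte clusters, and Areg and Il5 mostly in lymphocytes. Tslp lay mainly in macrophage-like cells, which also held some Il1rl1, and Il1rap was spread over stromal and immune clusters.

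**Figure D1:**
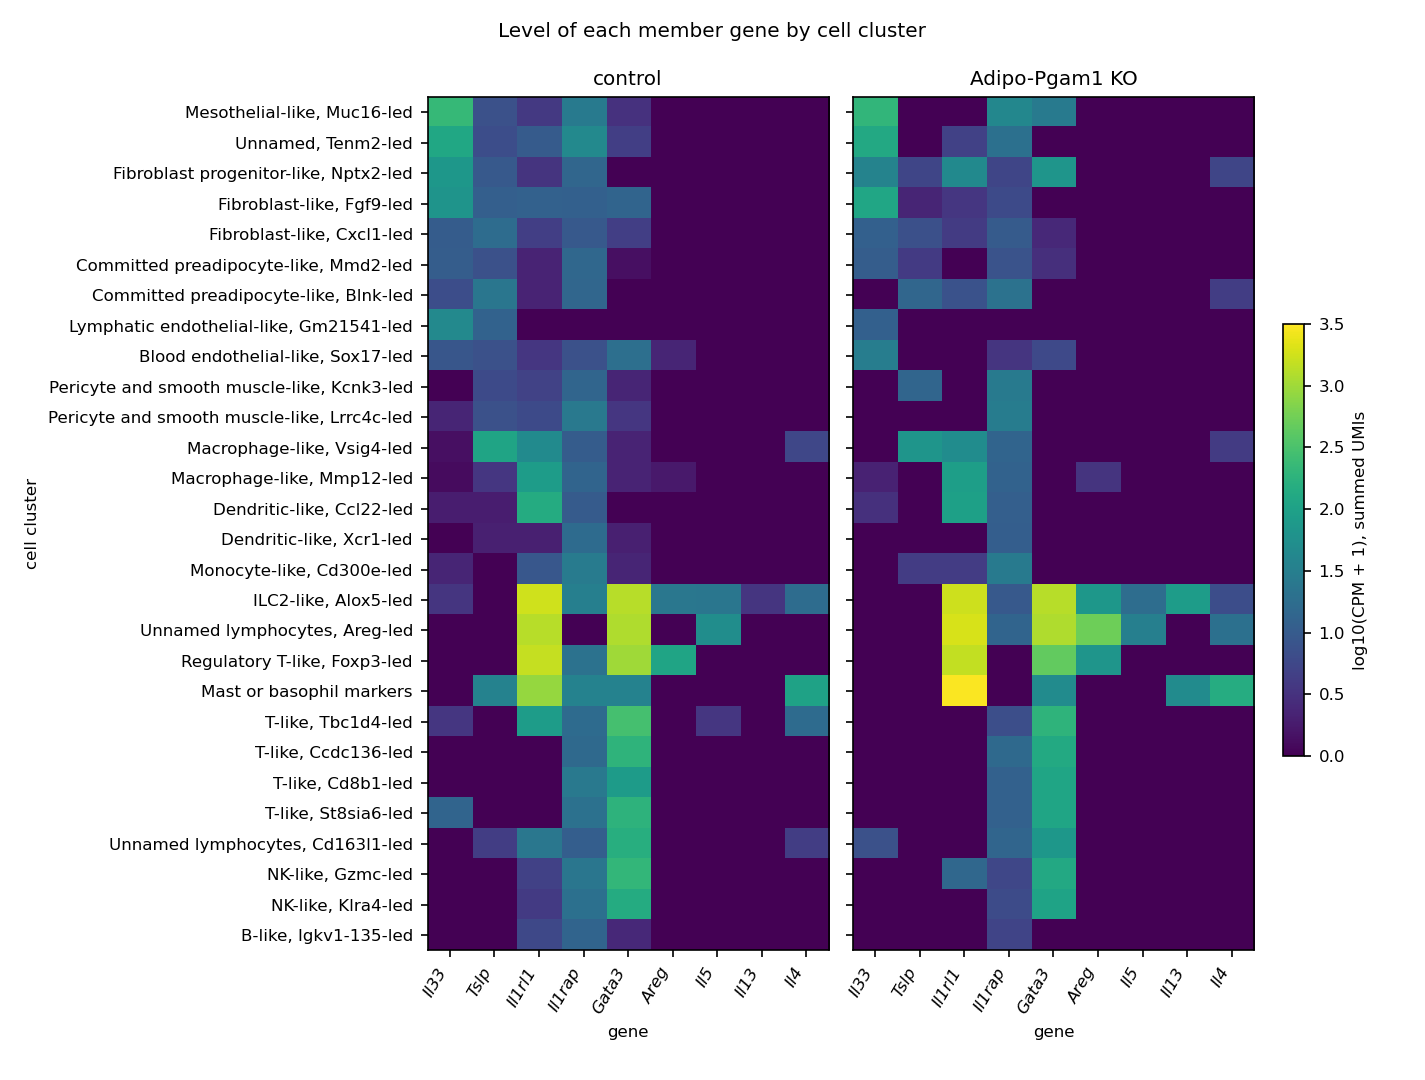
Level of the 9 genes, as log10(CPM + 1) of summed UMIs (colour), in each cell cluster (rows) of the control (left) and Adipo-Pgam1 KO (right) library. Il33 is bright in the upper, stromal rows, Il1rl1 and Gata3 in the ILC2-like, Areg-led and regulatory T-like rows, and Tslp in the Vsig4-led macrophage-like row.

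**Figure D2:**
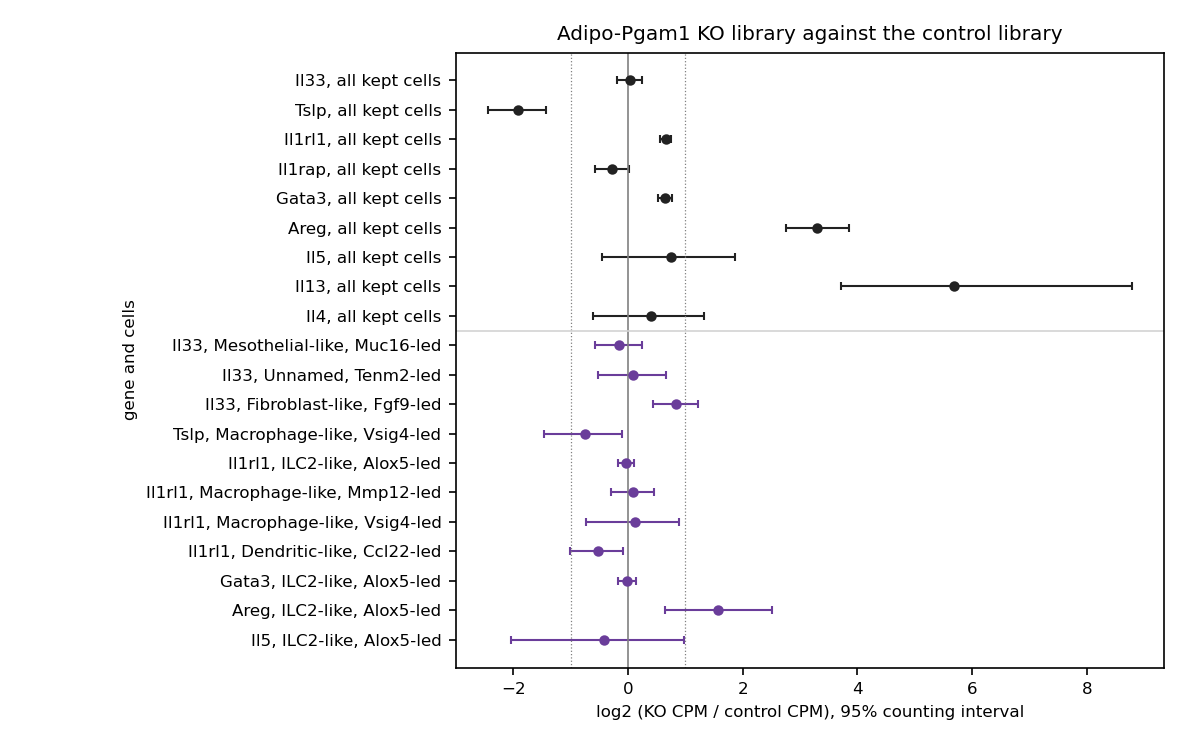
Log2 ratio of KO to control CPM (x axis) with its 95% counting interval, for each gene over all kept cells (black, above the line) and within single clusters (purple). Dotted lines mark a 2-fold difference. Il1rl1 and Gata3 lie above 0 over all cells (0.66 and 0.65) but at -0.04 and -0.01 within ILC2-like cells.

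Il33 was highest in mesothelial-like cells, followed by an unnamed stromal cluster and a part of the fibroblasts. Its level in mesothelial-like cells, the lining of the fat pad, was 221 CPM (197 to 247) in the control and 199 CPM (151 to 256) in the KO library. These cells were 2.93% of the kept control cells and held 43.8% of the control Il33 UMIs. An unnamed stromal cluster led by Tenm2 followed with 119 CPM (97.1 to 144) and 127 CPM (87.7 to 177). Fibroblast-like cells led by Fgf9 had 64.6 CPM (54.4 to 76.2) and 115 CPM (92.9 to 142), and fibroblast progenitor-like cells 71.1 CPM (54.1 to 91.8) and 35.6 CPM (15.4 to 70.1). The other fibroblast clusters, among them committed preadipocyte-like cells led by Mmd2 (9.66 and 9.69 CPM) and by Blnk (5.66 and 0 CPM), lay far below. Fibroblast-like, mesothelial-like and Tenm2-led cells together held 94.8% (92.9 to 96.3) of the control and 92.1% (87.8 to 95.2) of the KO Il33 UMIs. The gene spans chr19:29925114-29960718 on the forward strand of GRCm38 and has 8 exons in its longest model.

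In the order of control clusters with at least 20 cells, mesothelial-like exceeded Tenm2-led cells, and these exceeded progenitor-like cells, beyond counting error. Progenitor-like, Fgf9-led and lymphatic endothelial-like cells (43.2 CPM, 15 UMIs) did not differ beyond it, each from the next. In the KO library mesothelial-like also exceeded Tenm2-led cells (log2 ratio 0.65, 0.02 to 1.30), and the Tenm2-led and Fgf9-led clusters did not differ beyond counting error (0.13, -0.48 to 0.72). Il33 was detected in 73 of 106 control and 14 of 20 KO mesothelial-like cells, with at most 17 UMIs in a control cell and 26 in 1 KO cell. B-like cells, which should lack Il33, had it in 0 of 132 and 0 of 38 cells, which allows shares of cells with a UMI of up to 2.76% and 9.25% and sets no limit on cells expressing the gene below detection. Their median depth was 3999.5 and 4892 UMIs, against 13612.5 and 16001.5 in mesothelial-like cells. With each cell thinned to 2000 UMIs, Il33 remained in 27.4% of 95 control and 29.4% of 17 KO mesothelial-like cells and in 0 of 130 and 0 of 36 B-like cells. The 11 control and 3 KO mesothelial-like cells below that depth were left out.

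**Figure D3:**
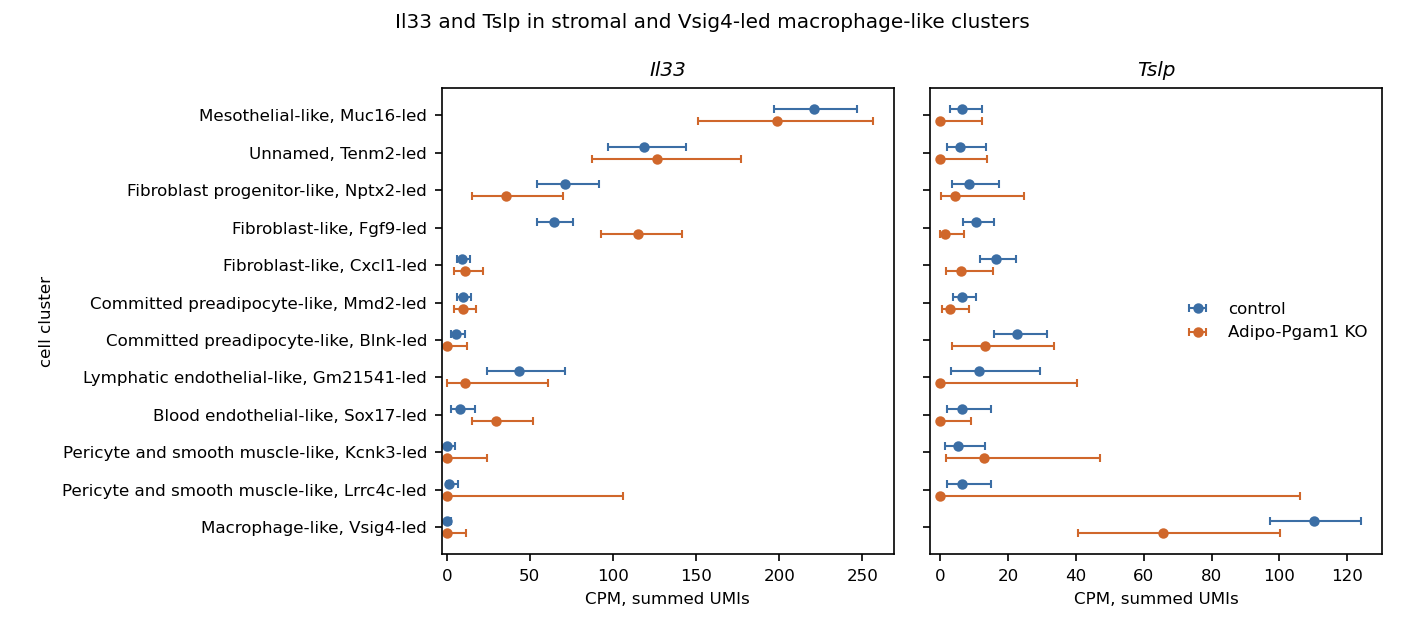
CPM of Il33 (left) and Tslp (right) on a linear axis, in the stromal clusters and in Vsig4-led macrophage-like cells of the control (blue) and Adipo-Pgam1 KO (orange) library, with 95% counting intervals. Il33 is highest in mesothelial-like cells of both libraries, and in Fgf9-led cells the KO interval lies above the control interval.

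Between the libraries Il33 was about equal over all kept cells, with 708 control and 227 KO UMIs, 23.3 and 23.9 CPM and a log2 ratio of 0.04 (-0.18 to 0.25). The ratio was -0.15 (-0.58 to 0.25) in mesothelial-like and 0.09 (-0.51 to 0.66) in Tenm2-led cells. It was 0.84 (0.44 to 1.23) in Fgf9-led fibroblast-like cells, where the KO level was 1.78-fold higher, from 142 UMIs in 72 of 175 control cells and 91 UMIs in 27 of 48 KO cells. Single KO cells of this cluster held 14, 11 and 7 of the 91 UMIs, a clumping that the counting interval does not cover. After thinning to 2000 UMIs Il33 was found in 11.6% of 172 and 25.5% of 47 of these cells. The median log2 ratio of all 7157 genes measured there was -0.08. The 5 immediate-early genes counted, among them Fos (580 and 1748 CPM), Fosb (147 and 588 CPM) and Egr1 (431 and 679 CPM), were also higher in the KO cells of this cluster, and their part in the result was not tested. Over all fibroblast-like cells the log2 ratio of Il33 was 0.53 (0.20 to 0.85), under 2-fold. In progenitor-like cells it was -1.0 (-2.28 to 0.07) from 59 and 8 UMIs, an interval that includes no difference. Endothelial cells gave few UMIs in opposite directions, 15 control and 1 KO UMIs in lymphatic and 6 and 12 in blood endothelial-like cells.

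Tslp did not share the distribution of Il33. Its highest level was in macrophage-like cells led by Vsig4, a complement receptor of resident macrophages, with 110.1 CPM (97.4 to 124) in the control and 65.6 CPM (40.6 to 100.2) in the KO library. The next control cluster was Blnk-led committed preadipocyte-like cells with 22.6 CPM (15.9 to 31.3). Mmp12-led macrophage-like cells had 2.53 CPM in the control. At least 1 Tslp UMI lay in 147 of 360 control and 11 of 37 KO Vsig4-led cells, with medians of 6584.5 and 9474 UMIs, and in 0 of 132 and 0 of 38 B-like cells. After thinning it was found in 21.5% of 326 and 10.3% of 29 Vsig4-led cells. The 34 control and 8 KO cells below 2000 UMIs were left out.

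Over all kept cells Tslp had 445 control and 37 KO UMIs, 14.6 and 3.89 CPM, a level 3.76-fold lower in the KO library (log2 ratio -1.91, -2.44 to -1.42). Vsig4-led cells made up 9.96% (8.999 to 10.98) of control cells and 3.95% (2.80 to 5.40) of KO cells, and within them the log2 ratio was -0.75 (-1.46 to -0.11). Without Vsig4-led cells, an exclusion chosen after seeing the data, it was -1.85 (-2.69 to -1.11) over the other kept cells. In the fibroblast-like class, 124 control and 13 KO UMIs gave 12.8 and 4.32 CPM and a log2 ratio of -1.57 (-2.52 to -0.74), beside 1.7% of genes at least 2-fold lower in that class. In the macrophage-like class it was -1.29 (-2.00 to -0.65), beside 5.02% of genes. Macrophage-like and fibroblast-like cells together held 90.6% of the control and 91.9% of the KO UMIs. Vsig4-led cells were 360 of the 660 control but 37 of the 98 KO macrophage-like cells, the rest of which were mainly Mmp12-led. Blnk-led cells were 151 of the 786 control but 17 of the 180 KO fibroblast-like cells. The part of these shares in the class ratios was not tested. Retnla, an abundant macrophage transcript that B cells should lack, was at 119 CPM in control and 12.8 CPM in KO B-like cells, a sign of free RNA whose part in the Tslp result was not tested. The TSLP receptor chain Crlf2 lay close in the libraries over all kept cells (57.6 and 61.2 CPM, log2 ratio 0.09, -0.05 to 0.22).

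Il1rl1, which encodes the IL-33 receptor ST2, was concentrated in 4 small groups of cells. ILC2-like cells had 1765 CPM (1674 to 1859) in the control and 1718 CPM (1585 to 1860) in the KO library, with at least 1 UMI in 172 of 176 and 53 of 53 cells. Regulatory T-like cells, in which Foxp3 was detected in 19 of 26 and 5 of 6 cells, had 1563 CPM (1327 to 1828) and 1513 CPM (1108 to 2018). An unnamed lymphocyte cluster led by Areg had 1347 CPM in 3 control and 1949 CPM in 23 KO cells. Barcodes with at least 3 of 9 mast cell and basophil markers had 893 CPM in 4 control and 3008 CPM in 6 KO cells. These groups held 63.2% (61.3 to 65.1) of the control and 86.6% (84.6 to 88.4) of the KO Il1rl1 UMIs, in 209 and 88 cells.

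A lower level of Il1rl1 was present in myeloid cells. Ccl22-led dendritic-like cells had 139 CPM (124 to 156) in the control and 96.9 CPM (71.2 to 129) in the KO library, Mmp12-led macrophage-like cells 84.7 and 90.1 CPM, and Vsig4-led cells 45.9 and 50.0 CPM. Xcr1-led dendritic-like cells had 1 and 0 UMIs, and B-like cells 3 and 0 UMIs (4.71 and 0 CPM). After thinning, Il1rl1 was found in 16.7% of 180 control Ccl22-led cells, in 14.4% of 285 Mmp12-led cells and in 0 of 130 B-like cells. The 913 control and 160 KO macrophage-like and dendritic-like cells together held 29.2% of the control and 11.05% of the KO Il1rl1 UMIs. In both libraries the gap between the lymphocytes and the first myeloid cluster was far beyond counting error, with a log2 ratio of 3.49 (3.20 to 3.77) between regulatory T-like and Ccl22-led control cells. ILC2-like and regulatory T-like control cells did not differ beyond it (0.18, -0.06 to 0.42).

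**Figure D4:**
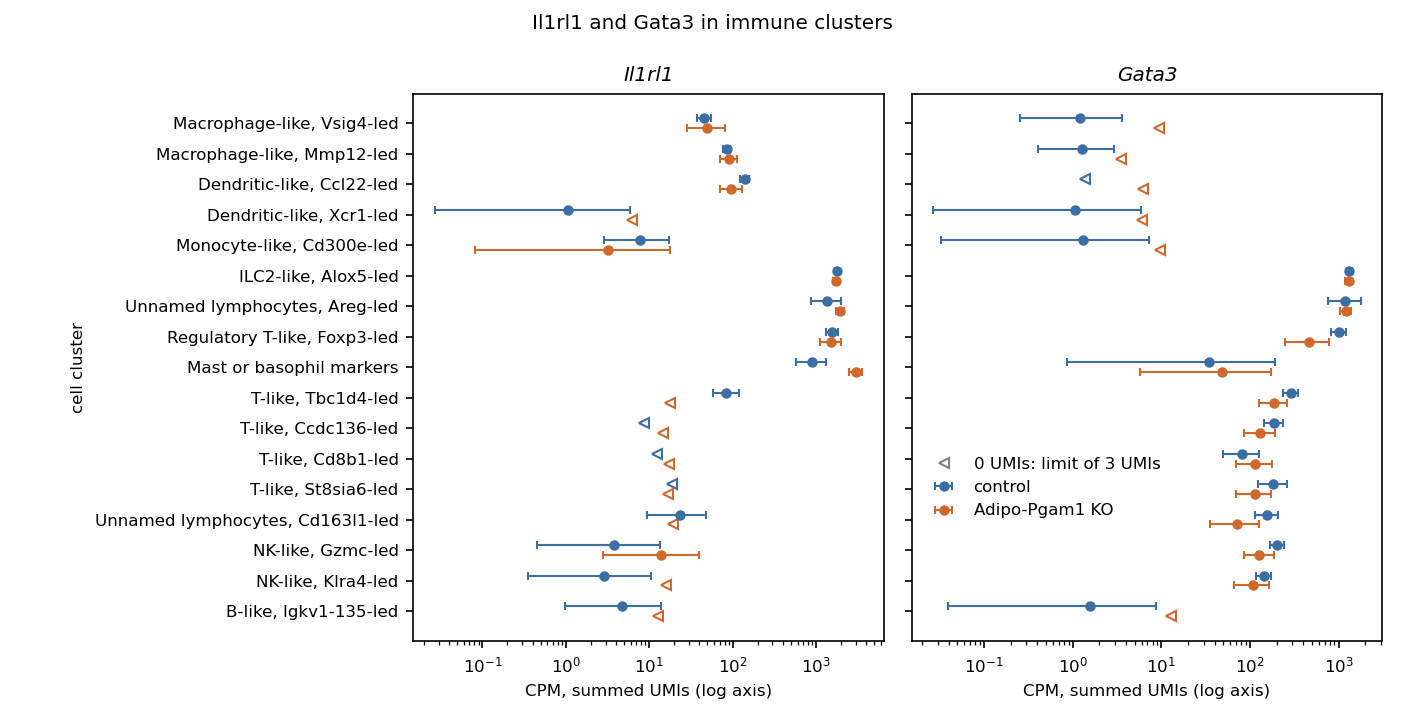
CPM of Il1rl1 (left) and Gata3 (right) on a log axis in immune clusters of the control (blue) and Adipo-Pgam1 KO (orange) library, with 95% counting intervals; an open triangle marks the limit of 3 UMIs where 0 were counted. ILC2-like, Areg-led and regulatory T-like cells are high for both genes, whereas macrophage-like and dendritic-like cells hold Il1rl1 with little Gata3.

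The gene lies at chr1:40429570-40465415 on the forward strand of GRCm38. Its 5 coding transcripts have 5 different 3′ ends in the gene model. The counts used here are summed per gene, so that they cannot separate the membrane receptor from the soluble form that acts as a decoy. Since Il1rl1 and Gata3 were detected together in 170 of 176 control and 53 of 53 KO ILC2-like cells, the upstream sequence of the receptor gene is shown with a GATA motif marked. The sequences are the 250 bases before each start in RefSeq (GRCm38.p6), forward strand for this gene. Capitals mark AGATAA, or TTATCT where it lies on the other strand, and positions count back from the start. Other forms of the GATA motif were not searched and are not marked.
Il1rl1, distal start, chr1:40429320-40429569: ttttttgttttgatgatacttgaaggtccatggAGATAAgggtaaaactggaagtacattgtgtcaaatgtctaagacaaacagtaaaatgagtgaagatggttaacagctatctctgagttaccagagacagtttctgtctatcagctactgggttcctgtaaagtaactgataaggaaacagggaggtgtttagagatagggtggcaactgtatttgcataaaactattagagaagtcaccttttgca
Il1rl1, proximal start, chr1:40439379-40439628: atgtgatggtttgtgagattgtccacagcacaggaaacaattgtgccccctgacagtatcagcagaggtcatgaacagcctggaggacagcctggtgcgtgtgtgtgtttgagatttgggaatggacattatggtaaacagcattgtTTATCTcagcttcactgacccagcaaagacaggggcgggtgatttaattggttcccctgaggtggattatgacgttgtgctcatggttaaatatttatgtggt
The motif stands at -217 of the distal and at -103 of the proximal start. It occurs on either strand in 3281 of 32851 promoters of the same length (9.99%) and in 3 of the 11 promoters of the 8 members with an entry, so that a match is a description and no evidence of binding.

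Between the libraries Il1rl1 was higher over all kept cells, with 2573 control and 1267 KO UMIs, 84.6 and 133 CPM and a log2 ratio of 0.66 (0.56 to 0.75), under 2-fold. Within ILC2-like and regulatory T-like cells the libraries lay close together, with log2 ratios of -0.04 (-0.18 to 0.10) and -0.05 (-0.55 to 0.44). The ratio was 0.53 (-0.05 to 1.17) in the Areg-led cluster and 1.75 (1.13 to 2.42) in the few mast and basophil marker barcodes. ILC2-like cells made up 4.87% (4.19 to 5.62) of control cells and 5.66% (4.27 to 7.33) of KO cells. The Areg-led cluster made up 0.083% and 2.45%, and it held 26 of the control and 315 of the KO UMIs. Without that cluster the log2 ratio over all kept cells was 0.28 (0.17 to 0.39). Without the mast and basophil marker barcodes (26 and 125 UMIs) it was 0.53 (0.42 to 0.63), and without both it was 0.10 (-0.02 to 0.21). Both exclusions were chosen after seeing the data.

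In some groups Il1rl1 was lower in the KO library. In dendritic-like cells the log2 ratio was -1.01 (-1.49 to -0.57), beside 3.09% of genes at least 2-fold lower there, and it was -0.53 (-1.0 to -0.08) within the Ccl22-led cells that carried the gene. In T-like cells 32 control UMIs, in 8 of the 85 Tbc1d4-led control cells, stood against 0 KO UMIs. With 3 UMIs put in place of the 0, the log2 ratio over all T-like cells would be -2.79. The upper end of the counting interval from the 0 UMIs was -2.41. Proliferating cells led by Hmmr had 65 control UMIs in 11 of 32 cells and 8 KO UMIs in 3 of 12 cells, and 1 control cell held 18 of them (log2 ratio -2.15, -3.42 to -1.09).

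Il1rap, the signalling chain shared with other receptors of the IL-1 family, was low and widespread. Its level was highest in neutrophil-like cells, with 752 CPM (376 to 1346) in 7 control and 541 CPM (309 to 878) in 9 KO cells. Among the larger clusters it ranged in the control from 43.9 CPM in Tenm2-led cells through 31.1 CPM in ILC2-like and 25.6 CPM in mesothelial-like cells to 0 CPM in lymphatic endothelial-like cells. Among clusters with at least 20 cells, no neighbours in the order of its levels differed beyond counting error in either library. B-like cells had Il1rap in 8 of 132 control cells and 1 of 38 KO cells. It was detected together with Il1rl1 in 19 of 176 control and 3 of 53 KO ILC2-like cells. Over all kept cells 460 control and 119 KO UMIs gave a log2 ratio of -0.27 (-0.58 to 0.02). In ILC2-like cells 25 control UMIs, 31.1 CPM, stood against 3 KO UMIs, 8.44 CPM (log2 ratio -1.88, -4.25 to -0.17).

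Gata3, the transcription factor of type 2 lymphocytes, was highest in ILC2-like cells, with 1322 CPM (1244 to 1404) in the control and 1313 CPM (1197 to 1438) in the KO library and a log2 ratio of -0.01 (-0.17 to 0.15). It was found in 173 of 176 and 53 of 53 of these cells. The Areg-led cluster had 1191 and 1206 CPM and regulatory T-like cells 1012 and 461 CPM. T-like cells, in whose development GATA3 also acts, had 198 and 136 CPM, and NK-like cells 169 and 119 CPM. Gata3 separated the lymphocytes from the myeloid cells with ST2: it was detected together with Il1rl1 in 19 of 26 control and 4 of 6 KO regulatory T-like cells, but in 3 of 660 and 0 of 98 macrophage-like cells and in 0 of 253 and 0 of 62 dendritic-like cells. B-like cells had 1 and 0 UMIs.

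Over all kept cells Gata3 had 1786 control and 874 KO UMIs, 58.7 and 91.9 CPM, and a log2 ratio of 0.65 (0.53 to 0.76). Without the Areg-led cluster, 23 control and 195 KO UMIs, it was 0.33 (0.20 to 0.45). Within T-like and NK-like cells Gata3 was lower in the KO library, with log2 ratios of -0.55 (-0.90 to -0.20) and -0.52 (-1.0 to -0.06), both under 2-fold. In regulatory T-like cells 101 UMIs in 26 control cells and 14 UMIs in 6 KO cells gave -1.14 (-2.06 to -0.32), beside 3.07% of the 326 genes measured there at least 2-fold lower. Stray counts reached other clusters through single cells: in the KO progenitor-like cluster 1 cell held 13 of the 15 Gata3 UMIs and the 10 Il1rl1 UMIs.

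The Areg-led cluster that carried much of these differences held 23 KO cells and 3 control cells, and these control cells had 0 Areg UMIs. Of the KO cells 23 had Il7r, 22 Rora, 23 Ltb4r1, 22 Il2ra, 15 Klrg1 and 9 Arg1, genes of the ILC2 and regulatory T lists, and 0 had Hs3st1. Of the same lists, Tnfrsf18 was found in 16, Rnf128 in 15, Tnfrsf4 in 8, Icos in 4 and Ikzf2 in 1. T cell receptor complex genes were detected too, Cd3g in 23, Trbc2 in 21, Trac in 20, Cd3d in 19 and Cd3e in 18 of 23. Foxp3, Ctla4 and the NK markers Ncr1, Klrb1c, Gzma, Prf1, Eomes and Klrk1 were at 0. The T and ILC2 lists scored too close to each other for a name. Of 5 immediate-early genes, 3 were higher in this cluster than in ILC2-like cells of both libraries. Fosb and Fos were among the 10 leading genes of the cluster, and immediate-early genes were not left out of the clustering. The comparison therefore describes how the cells were grouped and is no separate result. Fos was at 4454 and 4034 CPM against 1969 and 3023 CPM, Fosb at 2797 and 2518 CPM against 1199 and 1558 CPM, and Junb at 4920.5 and 6410 CPM against 3268 and 4741 CPM. Jun was at 311 and 192 CPM against 246 and 349 CPM, and Egr1 at 51.8 and 142 CPM against 53.5 and 47.8 CPM.

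Areg had 38 UMIs in 15 control and 116 UMIs in 18 KO cells, 1.25 and 12.2 CPM, a level 9.77-fold higher in the KO library (log2 ratio 3.29, 2.75 to 3.86). The plot of UMIs per cell shows that few cells carried it. In the KO library 6 of the 23 Areg-led cells held 87 UMIs, and 3 of them held 42, 33 and 9. Without the 3 cells with most Areg in each library the log2 ratio was 2.51 (1.63 to 3.43), and without the Areg-led cluster 1.31 (0.56 to 2.05). In ILC2-like cells 19 UMIs in 7 of 176 control cells and 25 UMIs in 8 of 53 KO cells gave 23.7 and 70.3 CPM and a log2 ratio of 1.57 (0.65 to 2.51), which after thinning was 0.60 (-1.28 to 2.24). Regulatory T-like cells had 11 UMIs in 4 of 26 control cells (110.2 CPM) and 2 UMIs in 2 of 6 KO cells (65.8 CPM). Fibroblast-like, mesothelial-like and B-like cells had 0 UMIs, and macrophage-like cells 3 and 2. Fos, Fosb, Jun and Junb were also higher in KO than in control ILC2-like cells, and Egr1 was not, and their part in the Areg difference was not tested.

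**Figure D5:**
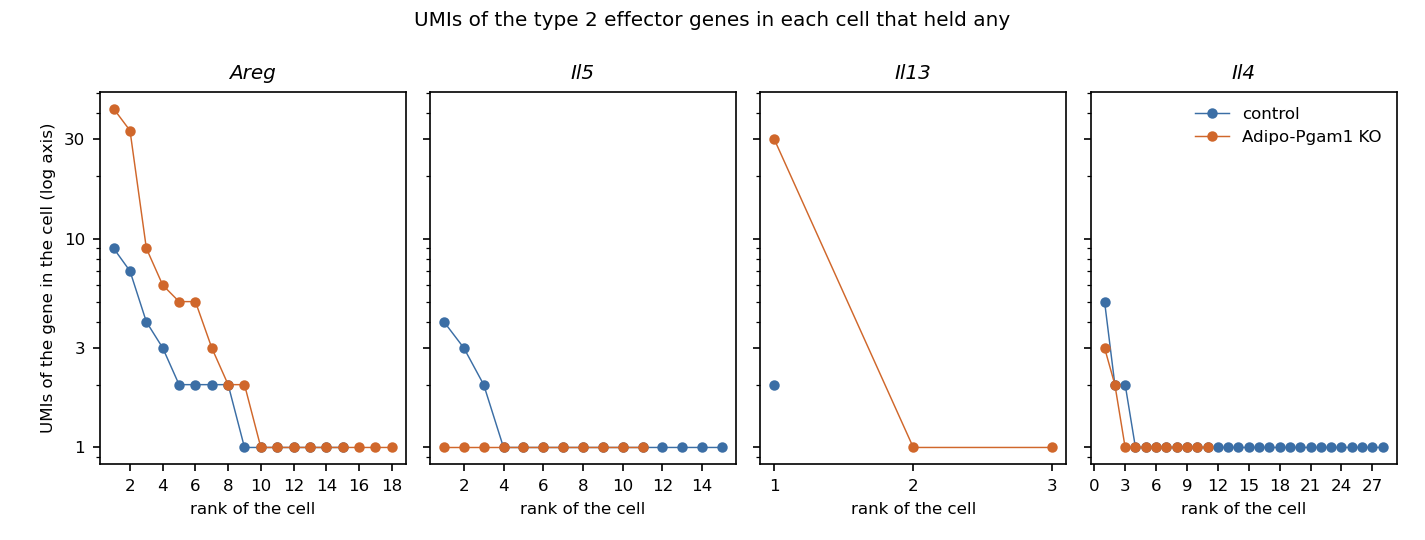
UMIs of Areg, Il5, Il13 and Il4 (log axis) in each kept cell that held any, ranked from the highest, in the control (blue) and Adipo-Pgam1 KO (orange) library. In the KO library 1 cell holds 30 of the 32 Il13 UMIs and 2 cells hold 42 and 33 of the 116 Areg UMIs.

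The type 2 cytokine genes Il4, Il13 and Il5 lie together at chr11:53602982-53725106 (GRCm38), and all were rare. Il5, the eosinophil growth factor, had 21 control and 11 KO UMIs, of which ILC2-like cells held 18 (22.4 CPM) and 6 (16.9 CPM), in 12 and 6 cells. In the KO library the remaining 5 Il5 UMIs were in 5 Areg-led cells. Over all kept cells the log2 ratio of Il5 was 0.75 (-0.45 to 1.86) and in ILC2-like cells -0.41 (-2.03 to 0.99), so that no difference was detectable at this depth. Il5 was found in 0 myeloid and 0 stromal cells.

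Il13, which drives alternative macrophage activation, had 2 UMIs in 1 control cell and 32 UMIs in 3 KO cells. A single KO ILC2-like cell with 7261 UMIs, 16 of Il1rl1 and 13 of Arg1, held 30 of the 32, and 2 barcodes with mast and basophil markers held the others. The log2 ratio of 5.68 (3.71 to 8.78) over all kept cells thus rested on 1 cell, and without it ILC2-like KO cells had 0 Il13 UMIs. 

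Il4, a cytokine that drives type 2 helper T cells, had 34 control and 14 KO UMIs with a log2 ratio of 0.40 (-0.61 to 1.33). It was the most scattered effector: 13 control UMIs lay in 12 ILC2-like cells, 11 in Vsig4-led macrophage-like cells and 6 in Tbc1d4-led T-like cells, 5 of these in 1 cell. In the KO library 6 of the 14 UMIs lay in barcodes with mast and basophil markers, 3 in the Areg-led cluster and 2 in ILC2-like cells. B-like cells had 0 UMIs of Il5, Il13 and Il4 in 132 control and 38 KO cells, at the depth given above, which limits cells with a UMI to 2.76% and 9.25% and not cells expressing these rarely detected genes. The 250 bases before the starts of Il13 (reverse strand) and Il5 (forward strand) are shown because both genes were found in ILC2-like cells, with the same motif in capitals.
Il13, chr11:53634703-53634952: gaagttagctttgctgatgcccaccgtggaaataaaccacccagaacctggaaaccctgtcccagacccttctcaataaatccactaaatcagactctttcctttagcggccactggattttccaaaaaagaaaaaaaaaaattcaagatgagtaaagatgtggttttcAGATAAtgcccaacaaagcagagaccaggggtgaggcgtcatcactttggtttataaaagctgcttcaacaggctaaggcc
Il5, chr11:53720544-53720793: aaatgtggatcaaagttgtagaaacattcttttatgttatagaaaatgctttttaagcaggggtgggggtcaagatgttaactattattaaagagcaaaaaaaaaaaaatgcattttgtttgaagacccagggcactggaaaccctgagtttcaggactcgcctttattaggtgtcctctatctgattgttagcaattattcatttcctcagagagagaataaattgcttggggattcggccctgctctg
AGATAA stands at -81 of Il13, and neither AGATAA nor TTATCT occurs in this window of Il5. Other forms of the GATA motif were not searched, so the Il5 window is not shown to lack a GATA site.

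Of the 44 further pathway genes, 39 had at least 50 UMIs over all kept cells. Of these, 5 were at least 2-fold higher in the KO library (Zbtb16, Nfil3, Csf2, Calca and Chil3), beside 2.48% of all genes, and 3 were lower by as much (Retnla, Ccl22 and Ccl8), beside 2.02%. The median log2 ratio was 0.14 over the 39 and -0.07 over all genes. Within ILC2-like cells 19 could be compared, and 4 were at least 2-fold higher beside 1.42% of the 3738 genes measured there. These were Csf2 (180.5 and 419 CPM), which encodes GM-CSF, Lif (99.6 and 217 CPM), the neuropeptide gene Calca (42.3 and 89.99 CPM, in 11 of 176 and 6 of 53 cells) and Crlf2 (42.3 and 89.99 CPM, in 31 and 19 cells). Retnla was the 1 gene at least 2-fold lower there (168 and 16.9 CPM), beside 3.05% of genes, and it was also lower in B-like cells, which should lack it. Other ligands were scarce: Il25 and Il9 had 0 UMIs in both libraries. In fibroblast-like cells 2 of the 22 compared were at least 2-fold higher, Zbtb16 (57.8 and 130 CPM) and Nfil3 (14.1 and 32.9 CPM), beside 1.14% of genes, and 1 was lower, Retnla (91.7 and 19.0 CPM), beside 1.7%. In macrophage-like cells 3 of 27, Chil3, Ccl17 and Nfil3, were at least 2-fold higher, beside 1.61% of genes, and 2 were lower, the receptor gene Egfr (20.0 and 4.26 CPM) and the eotaxin gene Ccl11 (8.60 and 3.40 CPM), beside 5.02%. Egfr and Ccl11 were highest in fibroblast-like cells (502 and 1180 CPM in the control). The part of free RNA in their macrophage-like counts was not tested. In dendritic-like cells 0 of 21 were higher, beside 1.23% of genes, and 3 were lower, Sigirr (29.2 and 11.3 CPM), Stat5b (61.3 and 22.6 CPM) and the chemokine gene Ccl22 (655 and 299.9 CPM), beside 3.09%. Ccl22-led cells were 181 of the 253 control and 35 of the 62 KO dendritic-like cells. Within them 2 of 20 were at least 2-fold lower, Sigirr and Stat5b but not Ccl22, beside 4.11% of genes.

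The genes whose levels followed the members most closely over the 13 named classes of the control library with at least 20 cells are given as a description, since all classes share 1 library. For Il33 they were Wnt9a (Pearson r of log2(CPM + 1), 0.96), Eda2r (0.95), Igsf3, Flnc and Cd109. For Il1rl1 they were Glrx (0.91), Setdb1, Ltb4r1, Cmtm6 and Tnfaip3. For Gata3 they were Cxcr6 (0.97), Gfi1 (0.97), 2610020H08Rik, Klrg1 and Il12rb1. For Areg, which rested on 38 UMIs, they were Jund (0.94), Dgat1, Aasdh, Arl5a and Zfand6. Ltb4r1 and Klrg1 are also on the list of ILC2 markers that named a class.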

How the data were processed

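The cells came from gonadal fat digested with collagenase and Dispase, freed of erythrocytes and captured with the 10x Chromium 3′ v3 kit, 1 library per genotype. Per the labels and the submitters' processing notes, the deposited values are whole UMI counts per gene and barcode from Cell Ranger 3.0.1 on mm10, and Seurat 3.1.5 under R 4.0.1 was used downstream. The deposited barcodes had medians of 2957.5 (control) and 2387 (KO) UMIs.

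Here barcodes needed 500 detected genes or more and no more than 10% of UMIs from mitochondrial genes. Scrublet scores removed 0.8% of barcodes per 1000, 265 control and 21 KO barcodes. Counts were scaled to 10000 per cell, and 2000 variable genes, without the 53 member and pathway genes, gave 30 principal components, 20 neighbours and Leiden clusters at resolution 0.5, with lymphocytes (1.0) and fibroblasts (0.5) reclustered. A cluster was named where at least 3 markers of a list were detected in 10% of its cells, the mean z score passed 0.5 and the next list lay 0.75 lower. Lists of related types, such as T and NK, were passed over for this gap. The 10 leading genes also had to hold no more markers of any other unrelated list. Clusters with median UMIs below the library median divided by 3 stayed unnamed where no leading gene was on their list. Barcodes with at least 3 of 9 mast and basophil markers were set apart. The last rule, the minimum of detected markers, the pooling of the CD8 list with the T list and the immediate-early genes were set after seeing the data. The members, marker lists and pathway list were chosen with earlier results of these data known.

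CPM have exact Poisson intervals, shares exact Clopper-Pearson intervals, and log2 ratios exact conditional binomial intervals, all at 95%. Genes were called at least 2-fold different, and counted against all genes, where the libraries together held 50 UMIs or more in the cells compared. Log2 ratios from fewer UMIs are given with their counts and intervals and were not called. Shares of cells were repeated with each cell thinned to 2000 UMIs, which left out 292 control and 96 KO cells. All members were named, and pathway genes were given by counts, with those at least 2-fold different in the comparisons described and others chosen for their role named. The most similar genes were ranked by Pearson's r. Alternatives changed the cell filters, doublet removal, clustering resolution, count minimum, thinning and scaling (TMM, edgeR 4.0.16 in R 4.3.3), and left out single groups of cells. The steps ran in Python 3.11.15 with scanpy 1.11.5, scikit-learn 1.9.0, igraph 0.11.9, leidenalg 0.10.2, pandas 2.3.3, matplotlib 3.10.9, scipy 1.17.1 and numpy 2.4.6. Only the 2-fold call and the intervals of log2 ratios were tested on simulated data, with Poisson counts such as these intervals assume. Filters, doublet removal, clustering and naming were not tested in that way. Gene positions are from GENCODE vM21.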

Additional observations from a re-analysis of the deposited data

Results flagged for a closer look

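Areg was also counted in the barcodes that the cell filter had left out, 4641 control and 1772 KO barcodes, and there it stood above the control. The control had 1 UMI in 1 barcode and the KO library 36 UMIs in 9 barcodes, a log2 ratio of 6.41 (3.84 to 11.76). The 3 highest KO barcodes held 10, 8 and 7 UMIs. All 9 exceeded the mitochondrial limit, 3 also had too few genes, and Il1rl1 was detected in 5 of them. The part of the mitochondrial share in this difference was not tested.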

How the results depend on the processing

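Of 117 alternative values, 95 stayed within the counting interval of the reported value or within 1.5 times a count, 22 moved further and 0 reversed. Only log2 ratios whose reported interval excluded 0 could count as reversed, and shares and gene counts could not. The log2 ratio of Il33 over all kept cells, reported as 0.04, went as low as -0.10, inside its interval. With cells thinned to 2000 UMIs the log2 ratios over all kept cells were 0.41 (Il33), 0.78 (Il1rl1), 2.68 (Areg) and -3.25 (Tslp), those of Il33 were 1.32 in fibroblast-like and 1.36 in Fgf9-led cells, that of Areg in ILC2-like cells was 0.60, ILC2-like cells held 69.5% of the control Il1rl1 UMIs, and 144 genes were at least 2-fold higher against 337. With 1000 genes and 5% mitochondrial UMIs as limits, Gata3 was at 0.87, fibroblast-like cells held 42.9% of the control Il33 UMIs and 224 genes were higher. With no doublet removal ILC2-like cells held 52.0% of Il1rl1, and by the mean CPM per cell Gata3 was at 0.40. A minimum of 20 UMIs gave 584 genes higher and 469 lower, against 337 and 275. Alternatives chosen after seeing the data gave 2.51 for Areg without its 3 top cells, and without the Areg-led cluster 1.31 (Areg), 0.28 (Il1rl1) and 0.33 (Gata3). Il1rl1 was at 0.53 without mast and basophil marker barcodes and 0.10 without both. The stricter filters left no ILC2-like class, and Vsig4-led cells did not form a cluster under them or at resolution 1.0. Of the genes at least 2-fold different, 55.1% were higher in the KO library, 41.9% with looser cell filters, 29.8% after thinning and 58.9% with TMM. No paired analysis was possible because each genotype had 1 library and the labels carry no replicate numbers. With 937 KO against 3616 control cells, effector genes with few UMIs have wide intervals, and no interval holds the spread between mice.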

Other observations

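Among genes of the type 2 response in macrophage-like cells, 5 were compared. Chil3 and Ccl17 were at least 2-fold higher in the KO library, beside 1.61% of the 8846 genes measured there. Of the 5, 0 were lower by as much, beside 5.02%. Chil3, a secreted lectin of alternatively activated macrophages, was at 18.9 CPM in the control and 512 CPM in the KO library and Ccl17, a chemokine, at 2.66 and 97.0 CPM. The transcription factor gene Nfil3 was at 20.6 and 41.7 CPM. The eotaxin gene Ccl24 was at 516 and 1018 CPM, just under 2-fold, and Retnla, a secreted product of such macrophages, at 19869 and 11235 CPM (log2 ratio -0.82). Mgl2 (634 and 481 CPM) and Ccl8 (134 and 91.9 CPM) were also lower in KO macrophage-like cells, by less than 2-fold. The Vsig4-led and Mmp12-led clusters held different shares of this class in the libraries. In monocyte-like cells Ccl24 had 3 control UMIs (3.93 CPM) and 56 KO UMIs (179 CPM). Chil3 was at 452 and 701 CPM in monocyte-like cells, above its macrophage-like level in both libraries. In dendritic-like cells Ccl22 was at 655 and 299.9 CPM, and Ccl17 at 738 and 946 CPM. Within the Ccl22-led cells alone Ccl22 was not at least 2-fold lower. In fibroblast-like cells the eotaxin gene Ccl11 was at 1180.1 and 757 CPM.

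Besides Areg, the barcodes outside the cell filter held 80 control and 6 KO UMIs of Tslp (log2 ratio -2.49, -3.98 to -1.31), 57 and 14 of Il33 (-0.78, -1.74 to 0.08) and 350 and 176 of Il1rl1 (0.25, -0.02 to 0.52).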
